A study of Mus musculus with 8 samples.

Results

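The cytosolic ribosomal protein genes were described in skeletal muscle of mice given K14Q MOTS-c. Members were the protein-coding genes of the GRCm38 annotation whose symbol begins with Rpl or Rps and a number, together with Rplp0, Rplp1, Rplp2 and Rpsa, leaving out the S6 kinases and Rps19bp1. This rule found 91 of the 55487 genes listed. Of the 91, 77 were core ribosomal proteins, 46 of the large and 31 of the small subunit. A further 8 were paralogs of a core gene (Rpl3l, Rpl7l1, Rpl10l, Rpl22l1, Rpl36al, Rpl39l, Rps27l and Rps27rt), and 6 were annotated as protein-coding although named as pseudogenes (Rpl9-ps1, Rpl9-ps6, Rpl10-ps3, Rpl36-ps4, Rpl36a-ps1 and Rps12-ps3), called retrocopies hereafter. For Rpl36-ps4, annotated with 3 exons where the others have 1, that name is only a label.

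All 8 libraries came from 1 group, male C57BL/6J mice aged 10 weeks whose 2 hind legs were held in casts for 8 days. Each mouse received the K14Q form of MOTS-c, a short peptide encoded by mitochondrial DNA, at 15 mg/kg/day, divided into 2 intraperitoneal injections per day. The sample labels name vastus lateralis muscle, whereas the series description and the study's methods name gastrocnemius, and the muscle could not be settled here. Mice without casts, untreated mice and mice given WT MOTS-c were not analysed here, so every value below describes immobilized, K14Q-treated muscle and no effect of the cast or of the peptide was measured.

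The ribosome is assembled from ribosomal RNA and one copy of most ribosomal proteins, with the acidic stalk proteins Rplp1 and Rplp2 as an exception. Their mRNAs are usually abundant, short and tightly coordinated, and many begin with a run of pyrimidines at the cap, the TOP motif, through which mTOR and the La-related protein Larp1 control their translation. In striated muscle, Rpl3l can take the place of Rpl3, which lies near the peptidyl transferase centre of the large subunit. Ribosome content sets a limit on protein synthesis in muscle fibres.

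A start-site pyrimidine tract was found in some of the family's promoters. RefSeq promoters of GRCm38.p6, each 300 bases from 250 before the start, matched 65 of the 91 members and 57 of the 77 core genes. A tract was counted where the annotated start base was C and at least 5 pyrimidines ran from it. It was present in 12 of the 57 core promoters (21.1%), against 2.45% of 26960 promoters of other genes. The 2 sets were chosen in unlike ways. A member's promoter was the one nearest the 5′ end of its principal transcript. For another gene it was the first one listed, whatever the gene's type or expression. The windows below were chosen to show tracts of different length, a parent and its retrogene, and starts without a tract. Each is 30 bases from 10 before the start, read 5′ to 3′ on the gene's strand, with the tract in capitals.
Rpl15 (chr14:18270967-18270996, minus strand): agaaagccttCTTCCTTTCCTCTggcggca
Rpl35 (chr2:39005112-39005141, minus strand): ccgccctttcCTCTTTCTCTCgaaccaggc
Rps6 (chr4:86857348-86857377, minus strand): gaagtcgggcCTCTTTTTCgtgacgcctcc
Rpl38 (chr11:114668570-114668599, plus strand): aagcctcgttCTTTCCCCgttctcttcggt
Rplp2 (chr7:141447641-141447670, plus strand): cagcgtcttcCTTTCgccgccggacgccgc
Rps27 (chr3:90213629-90213658, minus strand): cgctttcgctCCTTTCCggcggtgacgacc
Rps27rt (chr9:114982720-114982749, minus strand): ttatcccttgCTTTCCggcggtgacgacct
Rplp0 (chr5:115559457-115559486, plus strand): cgggtttcgaggaccgcctggttctcctat
Rpl4 (chr9:64173377-64173406, plus strand): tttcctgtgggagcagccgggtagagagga
Rpl3l (chr17:24727816-24727845, plus strand): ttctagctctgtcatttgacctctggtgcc
The longest of these tracts, in Rpl15, ran over 13 bases. Rplp0, Rpl4 and Rpl3l had no tract at the annotated start, which says only that these letters were not at that base of that annotated start. Rpl3 was not among the matched promoters.

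The same promoters were searched on both strands for 5 short motifs, so their unlike choice limits these shares too. CCGGAAG, the core of an ETS factor site, occurred in 38.6% of the core promoters and in 9.05% of the other promoters. GGGCGG, the GC box, occurred in 59.6% and 35.8%, and AAGATGGC, the core of a YY1 site, in 7.02% and 2.87%. TATAAA, the TATA box, occurred in 8.77% of core and 14.2% of other promoters. CANNTG, the E-box bound by myogenic factors among others, occurred in 49.1% and 72.2%. The median coefficient of variation between mice (CV, SD as a percentage of the mean) was 11.2% both in the 12 core genes with a start-site tract and in the 45 matched core genes without one. A core gene's correlation with the mean of the other core genes had a median of 0.791 with a tract and 0.898 without, a description of genes measured in the same libraries. Genes without a tract at the annotated start may still have one at another start, so this split does not separate mRNAs with and without the TOP motif.

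Sequence sharing limits which gene a read can be assigned to. Members were therefore compared with all annotated transcripts in windows of 50 bases. A median of 43.4% of a core gene's windows occurred in no other gene, and 47 of the 77 core genes had under 50% of such unique windows. Rps27 had the lowest share, 1.35%. The coding sequence of Rps27 on chromosome 3 (chr3:90212522-90213651, minus strand, GRCm38, 4 exons) and that of its intronless copy Rps27rt on chromosome 9 (chr9:114982366-114982739, minus strand) were identical over all 252 bases, so the first 60 are shown once for both.
Rps27 and Rps27rt: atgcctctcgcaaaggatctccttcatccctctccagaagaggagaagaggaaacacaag
In contrast, Rpl3 (chr15:80077791-80091868, minus strand, 10 exons) and Rpl3l (chr17:24727820-24736143, plus strand, 10 exons) shared 899 of 1202 aligned coding bases (74.8%), with no shared stretch above 22 bases. Their first 60 coding bases differed at 13 positions, shown in capitals.
Rpl3: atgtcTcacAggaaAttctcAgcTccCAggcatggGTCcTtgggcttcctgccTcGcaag
Rpl3l: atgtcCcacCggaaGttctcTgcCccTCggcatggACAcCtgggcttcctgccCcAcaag
All windows of Rpl3l were unique, and 14.4% of those of Rpl3 were, the rest occurring in 26 other genes. None of the Rpl3 windows occurred in Rpl3l.

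Libraries held 23985356 to 33012497 counts, recovered from the deposited values, and the authors' size factors ran from 0.906 to 1.20. The 10 most abundant genes took 18.7% of the counts in mouse 3 and 26.2% in mouse 1. The markers of muscle fibres, 12 in all, each reached 10 counts in all libraries, and their summed level ran from 1957050 normalized counts in mouse 3 to 3776820 in mouse 1, whereas none of 6 lymphoid markers reached that minimum. Pairs of libraries differed well beyond counting noise, with a chi-square per degree of freedom between 16.1 and 119, so none was a second copy of another. They were counted as 8 samples because the labels number them as replicates. The labels give no litter, cage or sequencing batch. In RNA from whole muscle, fewer cells of a type and less RNA per cell cannot be told apart.

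The 91 members together held a median of 1.15% of the counts of a library, with a low of 0.954% (95% exact binomial interval 0.951% to 0.958%) in mouse 2 and a high of 1.45% (1.45% to 1.46%) in mouse 3. Large-subunit core genes held between 0.569% and 0.863%, and small-subunit core genes between 0.338% and 0.519%. These intervals cover counting error only, since the counts are reads without molecular identifiers. Differences between mice were thus far wider than counting error. A further 301 ribosomal protein pseudogenes, which are not members, held 0.424% to 0.636%, and their sum came to 46.4% of that of the core genes. Of these pseudogenes 48 had a mean of at least 1000 normalized counts, among them Rps3a2 with 5493, Rpl10-ps6 with 5333 and Rps6-ps4 with 4602. How the counting treated reads that fit both a gene and its copies is not given in the sources used here, so the level of a core gene and of its copies is uncertain wherever they share sequence. Some copies had near-equal values. Rps12-ps3 and Rps12l1 were both at 200 in mouse 2 and 320 in mouse 3, and Rps19-ps1 and Rps19-ps2 both had a mean of 412. A shared read may thus have been counted at each copy. The sums and shares above, and their intervals, may then hold the same read more than once.

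**Figure D1:**
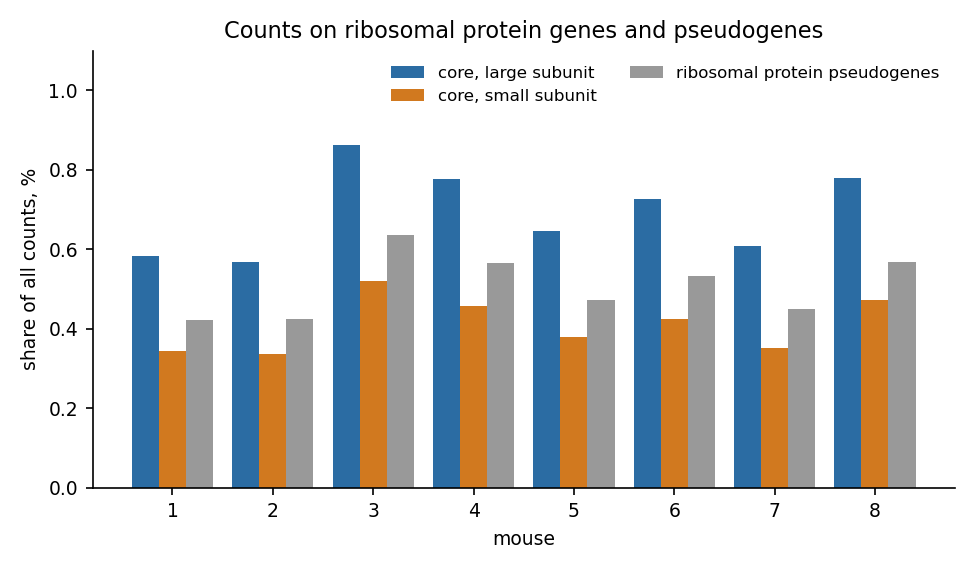
Share of all counts (%, vertical axis) held in each of the 8 mice by large-subunit core genes, small-subunit core genes and ribosomal protein pseudogenes. All 3 bars were tallest in mouse 3, where they reached 0.863%, 0.519% and 0.636%.

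Every core gene was expressed. The lowest count of any core gene in any library was 614, and the mean normalized count of the 77 genes had a median of 3695. Of all 91 members, 87 reached a minimum of 10 counts in each library, and the other 4 were at or near 0. Rpl10l, an autosomal copy of the X-linked Rpl10 that is known from the testis, had no count in any mouse. A count of 0 allows up to 3 counts in a library. Rpl39l, also known from the testis, had at most 1 count per library, and so did the retrocopies Rpl9-ps1 and Rpl36-ps4.

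Levels were compared between genes per kilobase of the principal annotated transcript. Rpl4, which lines the peptide exit tunnel, was highest at 11932 ± 833 normalized counts per kilobase (SD, n = 8 mice here and below). Rpl10, which joins the large subunit late in its assembly, followed at 10478 ± 1457, then Rpl23a of the tunnel exit at 10354 ± 915, the small-subunit gene Rps25 at 9262 ± 1010 and the stalk base gene Rplp0 at 9164 ± 1022. The mice of these neighbours overlapped, with Rpl4 between 10256 and 12987 and Rpl10 between 8150 and 12019 per kilobase. At the low end were Rps15a at 515 ± 39.7, Rps20 at 926 ± 153, Rpl39 at 1272 ± 208, Rps10 at 1847 ± 168 and Rpl37 at 1947 ± 232. Rps15a and Rps20 were divided by annotated transcripts of 5130 and 3706 bases, against a median of 774 bases over the core genes, so their place rests on that length. More of the order depends on it as well, since of the 10 genes highest per kilobase, 5 were among the 10 highest with the union of all exons and 6 with the median length of protein-coding transcripts. The median core gene stood at 4974 per kilobase, and 64 of the 77 lay within 2-fold of it.

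**Figure D2:**
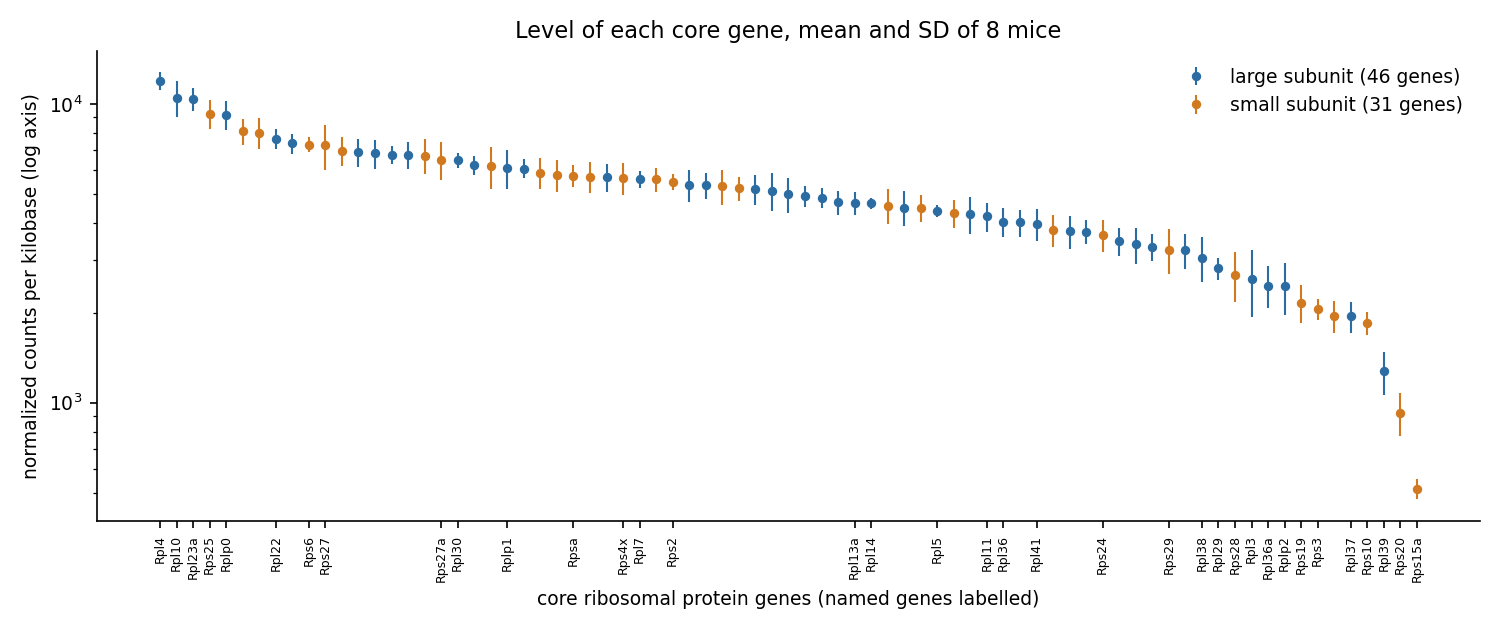
Mean and SD over 8 mice of the normalized counts per kilobase (log axis) of each of the 77 core genes, ordered from high to low and coloured by subunit, with the genes named by rule labelled. Most genes formed a plateau near 4974, with Rpl4 at 11932 on the left and Rps20 and Rps15a at 926 and 515 on the right.

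Ribosomal genes outside the symbol rule were measured on the same scale. Fau, which carries the small-subunit protein eS30 behind a ubiquitin-like domain, was at 3282 ± 397 normalized counts per kilobase. Rack1, a scaffold on the small subunit, was at 4016 ± 450. Rps27a, the member that is fused to ubiquitin, was at 6509 ± 944. Among the stalk genes, Rplp1 at 6096 ± 898 and Rplp2 at 2449 ± 480 were both under Rplp0 on this scale, and Rplp1 was above Rplp2 in all 8 mice. Part of the gap between Rplp1 and Rplp2 rests on length, since they were divided by 499 and 964 bases. Undivided, their means were 3042 and 2361 normalized counts. Other members with roles outside translation were Rpl5 at 4392 ± 202 and Rpl11 at 4200 ± 474, which bind Mdm2 when ribosome assembly fails, Rpsa, the laminin receptor, at 5744 ± 475, and Rps3, which also acts in DNA repair, at 2058 ± 165. Rps6, the target of the S6 kinases, was at 7303 ± 412, and Rps19, which is mutated in Diamond-Blackfan anaemia, at 2163 ± 309.

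The levels of the large and small subunit were compared as medians over genes. The median large-subunit gene was at 0.882 times the median small-subunit gene per kilobase in the middle mouse, and this ratio ran from 0.862 in mouse 1 to 0.938 in mouse 5. It was under 1 in all 8 mice. With the union of all exons as the length, the middle value was 0.987, and as a ratio of sums, over 46 large- and 31 small-subunit genes, it was 1.55. The ratio of medians varied by 2.92% between mice, whereas the subunit medians themselves varied by 8.90% and 9.94%.

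The spread of the core genes between mice was smaller than that of most genes under the deposited scaling. Their median CV was 11.2%, beside 15.6% over all 15135 genes at the count minimum, and 67 of the 77 were under that median. With library totals in place of the size factors, these medians were 17.0% and 18.2%. Among 3824 genes outside the family with a mean at or above that of the lowest core gene, the median CV was 12.3%. Rpl14 was the steadiest, with 4525, 4548, 5118, 4556, 4695, 4773, 4663 and 4640 normalized counts in mice 1 to 8 and a CV of 4.10%. Its 8 values stayed within a narrow band apart from mouse 3. Rpl5 (4.60%), Rps6 (5.65%), Rpl30 (5.74%) and Rps2 (6.18%) came next. Rpl3 varied most at 25.2%, followed by Rplp2 (19.6%), Rps28 (19.3%), Rps29 (17.3%) and Rps27 (17.1%). The median CV was 10.2% in the 38 core genes longer than 774 bases and 12.4% in the other 39.

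**Figure D3:**
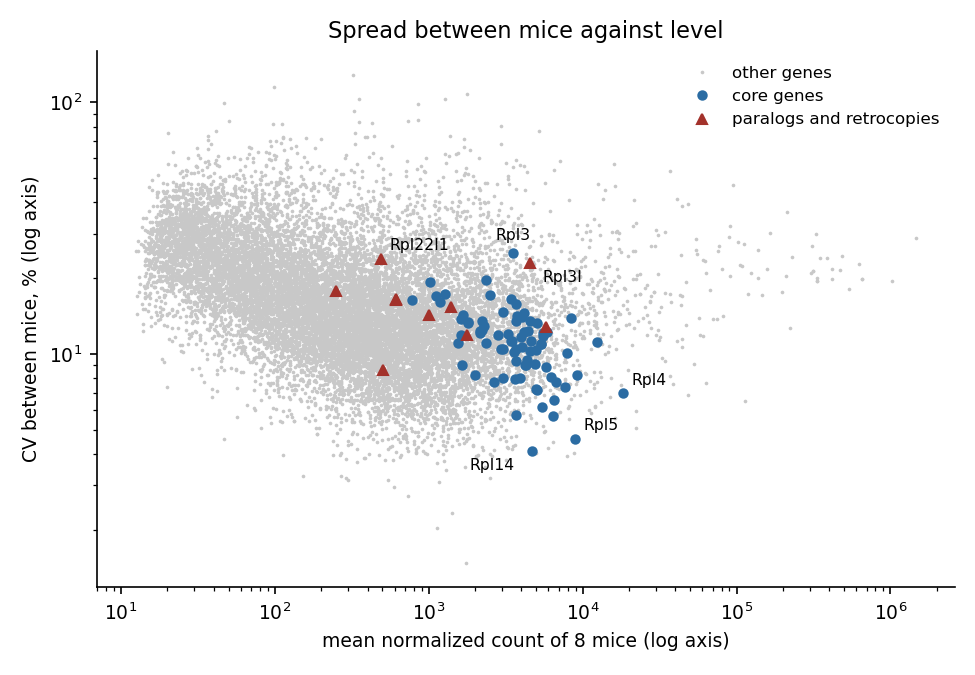
CV between the 8 mice (%, log axis) against the mean normalized count (log axis) of the genes at the count minimum. The core genes ran from Rpl14 at 4.10% up to Rpl3 at 25.2%, and the paralogs Rpl3l and Rpl22l1 at 23.0% and 23.9% lay beside Rpl3 at the top of the family.

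Core genes varied together across the mice. Over the 2926 pairs of core genes, the median Pearson correlation of log2(normalized count + 1) was 0.80, and 99.4% of the pairs were positive. The same median was 0.00 over all genes at the count minimum and 0.16 among 808 genes outside the family whose transcripts are at most 1000 bases. These correlations describe genes of the same 8 libraries, which share depth, scaling and RNA quality, and they carry no test. As a score, each mouse was given the mean over the 77 genes of the log2 deviation from the gene's mean. In mice 1 to 8 the score was -0.13, -0.17, 0.14, 0.00, -0.07, 0.04, -0.06 and 0.24. Mouse 8 was thus highest and mouse 2 lowest. Of the 77 genes, 62 had their highest value in mouse 8 and 14 in mouse 3, while 42 had their lowest in mouse 2. Large- and small-subunit scores were close to each other in the extreme mice, at 0.24 and 0.25 in mouse 8 and at -0.17 and -0.18 in mouse 2. They lay farthest apart in mouse 7, at -0.04 and -0.09, and were at 0.13 and 0.16 in mouse 3.

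**Figure D4:**
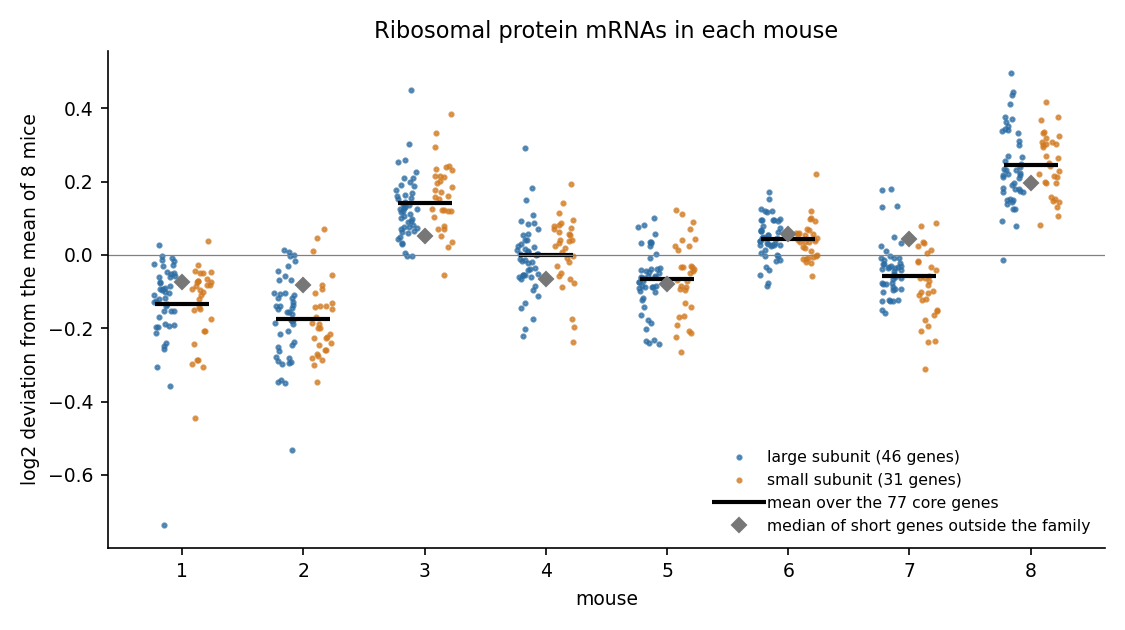
log2 deviation of each core gene from its mean over 8 mice (vertical axis), by mouse, with large-subunit genes in blue and small-subunit genes in orange. The bar is the mean of the 77 genes and the diamond the median of 808 short genes outside the family; both were highest in mouse 8, at 0.24 and 0.20.

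Levels of short and long genes differed between the mice with extreme scores. The median deviation of the short genes outside the family was 0.20 in mouse 8 and -0.08 in mouse 2, while that of 3752 genes with transcripts of at least 4000 bases was -0.17 and 0.09 in the same mice. This did not hold in every mouse. In mouse 7 the short genes stood at 0.04 and the long genes at -0.04 with a core score of -0.06, and in mouse 4 the short genes stood at -0.07 with a core score of 0.00. With the short-gene median subtracted in each mouse, an alternative chosen after seeing the data, the median correlation between core genes was 0.48. The score is also tied to the scaling. With library totals in place of the size factors, the mouse with the highest score was mouse 3 at 0.36 and the median core correlation was 0.92, beside 0.27 over all genes and 0.37 among the short genes, but the median deviation of all genes then ran from -0.13 to 0.22. With edgeR's TMM factors, mouse 8 stayed highest at 0.25 and mouse 2 lowest at -0.16. How much of the joint variation length or RNA quality accounts for was not tested.

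Lists of other genes showed where the score was shared. Fau was highest in mouse 8 at 2117 normalized counts and lowest in mouse 1 at 1512, and Rack1 was highest in mouse 3 at 6737 and lowest in mouse 2 at 4648. For 20 mitochondrial ribosomal proteins, which are made in the cytosol and build a separate ribosome, mouse 8 was highest at 0.25, as for the core genes, and mouse 2 lowest at -0.16. In 16 other translation genes with a known TOP start, the score ran from -0.12 in mouse 2 to 0.08 in mouse 8, a narrower span than that of the core genes. Their highest members were the elongation factor Eef2 with a mean of 48362 normalized counts, the nascent chain factor Naca with 31336 and Tpt1 with 31198. For 26 ribosome biogenesis genes, which act in the nucleolus and in pre-ribosome export, mouse 4 was highest at 0.21 and mouse 1 lowest at -0.21, and nucleolin (Ncl) led this list with 13067. In 11 translation regulators of muscle, led by Eef1a2 with 37232 and including Larp1 with 6766, mouse 8 stood at -0.09.

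Markers of other cell types were low where the core score was high in mouse 8. The mean deviation in mouse 8 was -0.67 for 8 fibroblast markers, -1.28 for 4 measured of 6 tendon markers, -1.13 for 4 measured of 5 adipocyte markers, -0.63 for 9 macrophage markers and -0.83 for 5 blood markers. The corresponding values in mouse 3, where the core score was second highest, were -0.26, -0.51, 0.62, 0.08 and 1.04. Endothelial, satellite cell and Schwann cell markers were at -0.18, -0.21 and -0.30 in mouse 8 and at 0.05, -0.05 and 0.04 in mouse 3. The 12 muscle fibre markers stood at 0.25 in mouse 8 and at -0.44, their lowest, in mouse 3. The part of cell composition in the core score was not tested.

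Individual core genes followed the family to different degrees. Correlated with the mean of the other core genes over the 8 mice, Rplp2 (0.994), Rpl36 (0.991) and Rpl13a (0.989) were closest. Rplp2 was measured at 1945, 1827, 2718, 2322, 2193, 2436, 2167 and 3276 normalized counts in mice 1 to 8, with mouse 2 lowest and mouse 8 highest, as in the score. Rpl13a, which has a role in interferon-driven translational silencing, was at 4544, 4292, 5342, 4818, 4732, 5013, 4604 and 5646. Rpl29 (0.386), Rps24 (0.499) and Rpl14 (0.532) followed least. In Rpl29 the values were 2028, 1951, 1986, 1877, 1696, 2046, 2185 and 2210, so its lowest mouse was mouse 5 and mouse 3 lay near the middle. Rps24 had its lowest value in mouse 4 with 4947 and its highest in mouse 8 with 7346. Of the 77 genes, 60 had a correlation above 0.8. Rpl38, which is known for its role in translating Hox mRNAs, was at 0.707 with 859 in mouse 1 and 1488 in mouse 8. Rpl41, the shortest ribosomal protein, was at 0.819.

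Rpl3, the core gene with the widest spread, was set beside its muscle paralog Rpl3l. Rpl3 was measured at 2032, 2342, 4632, 4147, 3465, 3818, 3833 and 3742 normalized counts in mice 1 to 8. Rpl3l was measured at 6633, 4319, 3689, 3208, 4001, 4610, 4837 and 5169. Rpl3 was thus lowest in mice 1 and 2 and highest in mice 3 and 4, while Rpl3l was highest in mouse 1 and lowest in mice 4 and 3. Rpl3l held 76.5% of the counts of both genes in mouse 1 (95% exact binomial interval 75.6% to 77.5%) and 43.6% in mouse 4 (42.4% to 44.8%), with a median of 55.2%. The sum of both genes per kilobase varied less than either, with a CV of 9.89%, beside 25.2% for Rpl3 and 23.0% for Rpl3l. A sum of 2 genes of like level and spread varies less than either even when they are unrelated, so this alone shows no relation. Across mice the pair had Pearson's r = -0.65 (exact permutation p = 0.086, two-sided, n = 8; adjusted p = 0.15 over 7 pairs) and Spearman's rho = -0.60 (exact permutation p = 0.13; adjusted p = 0.31), so the inverse relation did not pass the test. Without mice 1 and 2, which lie farthest from the median of Rpl3, r was -0.51, and without mouse 1 alone it was -0.28. With the short-gene median subtracted in each mouse, chosen after seeing the data, r was -0.87 (exact permutation, adjusted p = 0.0076, n = 8). No batch was given within which the relation could be repeated.

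On the level itself, Rpl3l was the higher per kilobase in 6 of 8 mice, and Rpl3 in mice 3 and 4. The mean difference, Rpl3 minus Rpl3l, was -0.37 ± 0.67 (SD, n = 8) on the log2(per kilobase + 1) scale, which did not pass the exact two-sided sign-flip test (adjusted p = 0.16 over 7 pairs). This outcome rests on the length used, since with the union of all exons it was -1.35 (exact sign-flip test, adjusted p = 0.0078, n = 8). Rpl3 shares most of its windows with other genes, and its pseudogenes Rpl3-ps1 (818 to 1965 normalized counts) and Rpl3-ps2 (453 to 974) were both lowest in mouse 1 and highest in mouse 3, as Rpl3 was. The muscle fibre markers had their lowest scores, -0.44 and -0.33, in mice 3 and 4, where Rpl3 exceeded Rpl3l, and their highest, 0.29, in mouse 1, where Rpl3l was highest. Whether fibre content accounts for the difference between the mice was not tested.

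**Figure D5:**
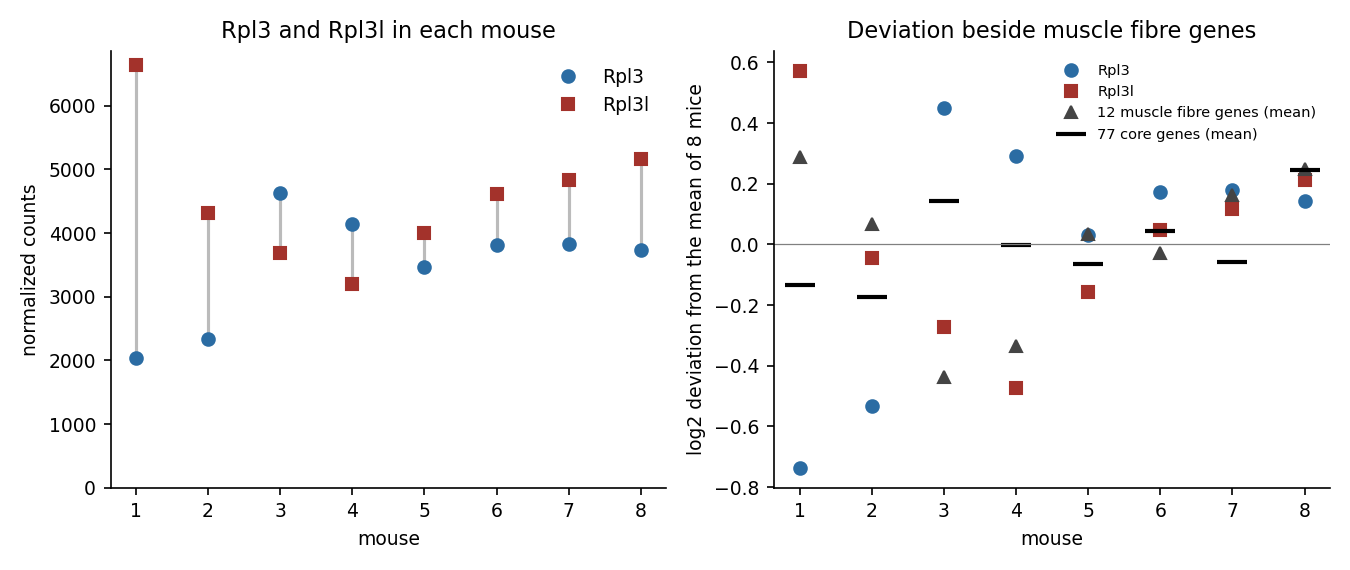
Left, normalized counts of Rpl3 and Rpl3l in each of 8 mice, joined by a line per mouse; right, log2 deviation from the mean of 8 mice of both genes, of 12 muscle fibre genes and of the 77 core genes. Rpl3l exceeded Rpl3 in 6 mice, most in mouse 1 with 6633 against 2032, and was under Rpl3 in mice 3 and 4.

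In the other pairs, 1 gene was higher in all 8 mice, and 6 of the 7 pairs (85.7%) passed the test. Each of these differences in level per kilobase had the smallest p the exact sign-flip test can give with 8 mice (0.0078, or 0.0091 after adjustment over 7 pairs). Any pair of genes reaches that p when the same gene is higher in all 8 mice. Pairs of unrelated genes were not tested, so the share that passed cannot be read as particular to paralogs. Rpl7, of the large subunit, was 28.9-fold above Rpl7l1, which had a mean of 504 normalized counts and a CV of 8.63%. Rpl22, which binds RNA at the surface of the large subunit, was 8.78-fold above Rpl22l1. The latter had 442, 428, 665, 472, 459, 400, 372 and 679 normalized counts in mice 1 to 8, with mice 3 and 8 clear of the others. Rps4x was 134-fold above Rps4l, a related gene annotated as a transcribed pseudogene and so not a member, which was at 23.1 to 41.5 normalized counts. Rps27 was 2.61-fold above Rps27l, a p53-responsive paralog, and 4.42-fold above Rps27rt. The last of these is uncertain, since both genes have the same coding sequence and the split of counts between them depends on how shared reads were assigned.

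Rpl36al was the exception in direction, standing 1.38-fold above its X-linked parent Rpl36a in 8 of 8 mice. Rpl36a was at 1061, 1185, 1314, 1067, 997, 1145, 1154 and 1603 normalized counts, and Rpl36al at 1493, 1759, 1790, 1679, 1537, 1840, 2096 and 2014. Values of the 2 genes overlapped only through mouse 8 for Rpl36a and mice 1 and 5 for Rpl36al. The uncertainty from shared sequence applies here too, since 14.5% and 36.7% of their windows were unique, and the retrocopy Rpl36a-ps1 was at 474 to 777. With the union of all exons as the length, all 6 differences kept their direction and passed the test, but 4 of them narrowed by over 1.5 times in fold. On the log2 scale, Rps27 over Rps27l and Rps27rt went from 1.38 and 2.14 to 0.50 and 0.55, Rpl7 over Rpl7l1 from 4.85 to 4.07 and Rpl22 over Rpl22l1 from 3.13 to 2.36.

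Of the 7 relations across mice, that of Rps27 and Rps27rt alone passed the test (14.3%) under the deposited scaling. With library totals 4 more passed, with r from 0.74 for Rps27 and Rps27l to 0.86 for Rpl22 and Rpl22l1, and r for Rps4x and Rps4l turned to 0.29. That scaling also raised the median correlation over all genes at the count minimum to 0.27. The 4 added passes therefore cannot be read as relations particular to these pairs. Under the deposited scaling, Rps27 and Rps27rt had r = 0.99 (exact permutation, adjusted p = 0.00017, n = 8) and rho = 1 (exact permutation, adjusted p = 0.00035, n = 8), and r = 0.99 without mice 7 and 1. The counts ran in parallel from 1994 and 477 in mouse 7 to 3224 and 775 in mouse 3. Because their coding sequences are identical and 1.35% and 8.92% of their windows are unique, these values cannot be read as 2 independent measurements. For the remaining pairs, r was 0.73 for Rpl22 and Rpl22l1 (exact permutation, adjusted p = 0.14, n = 8), 0.67 for Rpl36a and Rpl36al (0.15), 0.45 for Rps27 and Rps27l (0.36), 0.32 for Rpl7 and Rpl7l1 (0.51) and -0.13 for Rps4x and Rps4l (0.77), with p-values adjusted over 7 pairs. Without the 2 farthest mice of each pair, r was -0.42 for Rpl22 and Rpl22l1 and -0.28 for Rpl7 and Rpl7l1. It was 0.44 for Rpl36a and Rpl36al, 0.38 for Rps27 and Rps27l and -0.01 for Rps4x and Rps4l. Single mice weighed on several of these. Without mouse 7, r was 0.87 for Rpl36a and Rpl36al (exact permutation, adjusted p = 0.031), which passed the test. For Rpl7 and Rpl7l1 it was 0.75 without mouse 7 and 0.03 without mouse 8, and for Rps27 and Rps27l it was 0.63 without mouse 7 and 0.22 without mouse 1.

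Retrocopies carried counts that their own sequence could hardly identify. Rpl10-ps3, intronless on chromosome 9, was at 4546 to 6557 normalized counts although 3.89% of its windows were unique, beside 6512 to 9603 for Rpl10, of whose windows 7.87% were unique. In both genes mouse 2 was lowest and mouse 3 highest. Rps12-ps3 had no unique window and was listed at 200 to 320, and Rpl9-ps6, with 10.8% unique windows, was at 798 to 1191. The retrocopy with the most unique sequence among the 4 that were expressed, Rpl36a-ps1 with 35.0%, followed the core genes least (0.285).

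The family also shared features of gene structure. Core genes had a median transcript length of 774 bases and a median of 5 exons, against 2436 bases and 7 exons in 21883 other protein-coding genes. Small nucleolar RNAs, which guide the chemical modification of ribosomal RNA and are mostly released from introns, lay inside 30 of the 77 core genes (39.0%), which held 58 of them, against 1.05% of the other protein-coding genes. Rpl4 held 5 and Rpl13a held 4. Host genes had a median CV of 10.2%, beside 11.7% for core genes without a small nucleolar RNA. Core genes lay on 19 chromosomes, including the X chromosome.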

How the data were processed

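Libraries were made from poly-adenylated RNA. The authors checked and trimmed reads (FastQC and fastp, per the labels), mapped them with STAR to GRCm38.p6, counted them per gene (summarizeOverlaps) and scaled the libraries with DESeq2. The annotation release, strand and treatment of multi-mapping reads are not given in the sources used here. The deposited signal is a count divided by 1 size factor per library: 100% of nonzero values were whole reads within 0.01 of a read, which gave the counts. With 1 condition, no count test was run and no gene was called.

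GENCODE M21 (GRCm38) gave types, positions and lengths for 55227 of 55487 identifiers. Length was that of the principal transcript (APPRIS, then the longest coding sequence). Members, gene lists and tests were chosen with earlier results of these data known. Named were all paralogs and retrocopies, the extremes of level, spread and joint variation, and a fixed list of well-known members. Paralog pairs with at least 10 counts in every library were compared by exact sign-flip (256 patterns) and pairing (40320) tests on log2 values with a pseudocount of 1. P-values measure the spread between these mice. Some values are not reported here. Scripts were tested on simulated data. Python 3.11.15, scipy 1.17.1 and edgeR 4.0.16 (TMM factors) were used.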

Additional observations from a re-analysis of the deposited data

Results flagged for a closer look

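For 54 measures, namely genes chosen by the naming rule and 4 summary values (the members' share of counts, the core score, the subunit ratio and the share of Rpl3l), the highest and the lowest of the 8 mice were compared with the rest by the gap to the nearest mouse over the whole range, against Dixon's critical value of 0.526. Of these, 3 exceeded it, beside 2.7 that chance gives at 5% per measure. Rpl14 was set apart by mouse 3, at 5118 normalized counts where the others had 4525 to 4773 (a gap of 0.58 of the range). Rpl41 was set apart by mouse 8, at 2767 against 1954 to 2189 (0.71), and Fau by the same mouse, at 2117 against 1512 to 1789 (0.54). The core genes and the short genes outside the family had their highest scores in mouse 8 too. A cause was not tested.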

How the results depend on the processing

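No paired analysis was possible because all 8 mice belong to 1 group. The share of counts held by members was 1.65% with pseudogenes added, a sum that may hold shared reads more than once, and 1.48% of a total without the 10 most abundant genes. Of the 10 core genes highest per kilobase, 5 were among the 10 highest with the union of all exons and 6 with the median length of protein-coding transcripts. The subunit ratio was 0.987 with the union of all exons and 1.55 as a ratio of sums. Library totals gave a median CV of 17.0% for core genes beside 18.2% for all genes at the count minimum. Under the deposited scaling, all genes with a count in at least 1 library had a median of 36.4%. The joint variation was 0.48 after subtraction of short genes and 0.72 to 0.83 when each mouse was left out. For Rpl3 and Rpl3l, the level difference was -1.35 with the union of all exons and -0.48 to -0.18 without each mouse, and r was -0.87 after subtraction of short genes and -0.80 to -0.28 without each mouse. With library totals, r passed the threshold for Rpl7 and Rpl7l1 (0.76), Rpl22 and Rpl22l1 (0.86), Rpl36a and Rpl36al (0.79) and Rps27 and Rps27l (0.74), and it turned to 0.29 for Rps4x and Rps4l. The median correlation over all genes at the count minimum rose to 0.27 under that scaling. Subtraction of short genes turned r to -0.28 for Rpl7 and Rpl7l1. Leaving out each mouse gave 0.58 to 0.87 for Rpl36a and Rpl36al, past the threshold without mouse 7, 0.03 to 0.75 for Rpl7 and Rpl7l1, 0.22 to 0.63 for Rps27 and Rps27l, 0.56 to 0.88 for Rpl22 and Rpl22l1 and -0.46 to 0.11 for Rps4x and Rps4l. The mean levels of the 87 members at the count minimum moved by less than 1 SD under TMM factors, library totals and the median over mice. The cause of these changes was not tested. In the core genes with at least 50% unique windows, chosen after seeing the data, the median CV was 11.7% and the median correlation 0.78. Each core gene had at least 614 counts in every mouse.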
